A study of Mus musculus with 12 samples.

Results

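Cytosolic ribosomal protein genes were followed across 12 libraries of the mouse paraventricular nucleus, a group of hypothalamic neurons at the head of the pituitary and adrenal stress axis. The genes were chosen by symbol, as every name built from Rpl or Rps with a number or the P or A designation of a ribosomal protein, and each was represented by its transcript row of highest mean. Of 83 such symbols, 79 reached a mean of 1 RPKM (reads per kilobase of transcript and per 1 M reads) and are the members described here, 48 of the large subunit and 31 of the small subunit, among 13273 genes that reached the same level. The 4 symbols below it were Rps13 at 0.791 RPKM, Rpl39l at 0.407, Rpl3l at 0.118 and Rpl10l at 0.0787, and the members just above it were Rps23 at 1.39 and Rps16 at 1.40 RPKM.

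All animals were adult males of 18 to 20 weeks that grew from C57/Bl6:129S6/SvEvTac hybrid zygotes, carried to term by CD1 surrogates. In the miR group (6 animals, replicates 1 to 6) the zygote had received 9 microRNA mimics together, at 0.11 ng/uL each and 1 ng/uL in total, made up of miR-375, miR-204, the related miR-30c and miR-30a, miR-698 and miR-532-3p, and miR-193-5p, miR-32 and miR-29c. In the PBS group (6 animals, replicates 7 to 12) it had received the phosphate-buffered saline vehicle alone. Each library came from 1 animal, as poly-A selected RNA of a 1.0 mm punch through 2 slices, so a change in the cells sampled and a change in RNA per cell cannot be told apart. Litters are not recorded in the labels, and the tissue was taken in the adult, long after the injection.

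A cytosolic ribosome is built from a small subunit, which reads the messenger RNA, and a large subunit, which joins the amino acids, and each protein is present in the finished particle in about equal number, the acidic stalk proteins P1 and P2 excepted. The messenger RNAs of these proteins are abundant in growing cells and start with a pyrimidine tract through which growth signals govern their translation. Mammalian genomes also hold many processed pseudogenes of ribosomal protein genes, copies of the spliced messenger RNA that can be nearly identical to the coding sequence.

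The first 30 coding bases of several members are shown, with the start codon in capitals, because the members differed in how much of their sequence is their own and this difference ran beside the measured levels.

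Rpl8: ATGggccgtgtgatccgagggcagaggaaa

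Rps3: ATGgcggtgcagatttccaagaagaggaag

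Rps6: ATGaagctgaacatctccttccccgccacc

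Rps23: ATGggcaagtgtcgtggtctccgaactgcc

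Rpl21: ATGacgaacacaaagggaaagaggagaggc

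These sequences are from GENCODE M21 transcripts. In that annotation the opening of Rpl8 and Rps3 was found in 0 other genes, that of Rps23 in 6, that of Rps6 in 7 and that of Rpl21 in 40, and all of those copies were annotated as pseudogenes. Among the 77 members whose opening was compared, 11 had an opening found in no other gene, and the median was 3 other genes. The comparison was then extended to the complete coding sequence, as the share of its 50-base runs that occur exactly in no other annotated gene. The median share was 8.70% over the 79 members against 100% over the 12448 protein-coding genes tested that had a value, and 29 members (36.7%) had a share of 0 against 1.29% of those genes.

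The measured levels of the members spanned 255-fold. Rpl8 had the highest mean at 355 RPKM, followed by Rplp1 at 354, Rpl41 at 343, Rps15 at 331, and Rpl4 was at 251 RPKM. The 6 highest members made up 44.6% of the summed level. The median member stood at 19.7 RPKM, 11 members were at 100 RPKM or above and 20 were under 5 RPKM. The 6 lowest were Rps23 at 1.39, Rps16 at 1.40, Rpl27 at 1.48, Rpl24 at 1.49, Rpl17 at 1.92 and Rps29 at 1.99 RPKM. The SD between members was 2.25 on the log2 scale, against a median SD between libraries of one group of 0.18 for a single member.

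**Figure D1:**
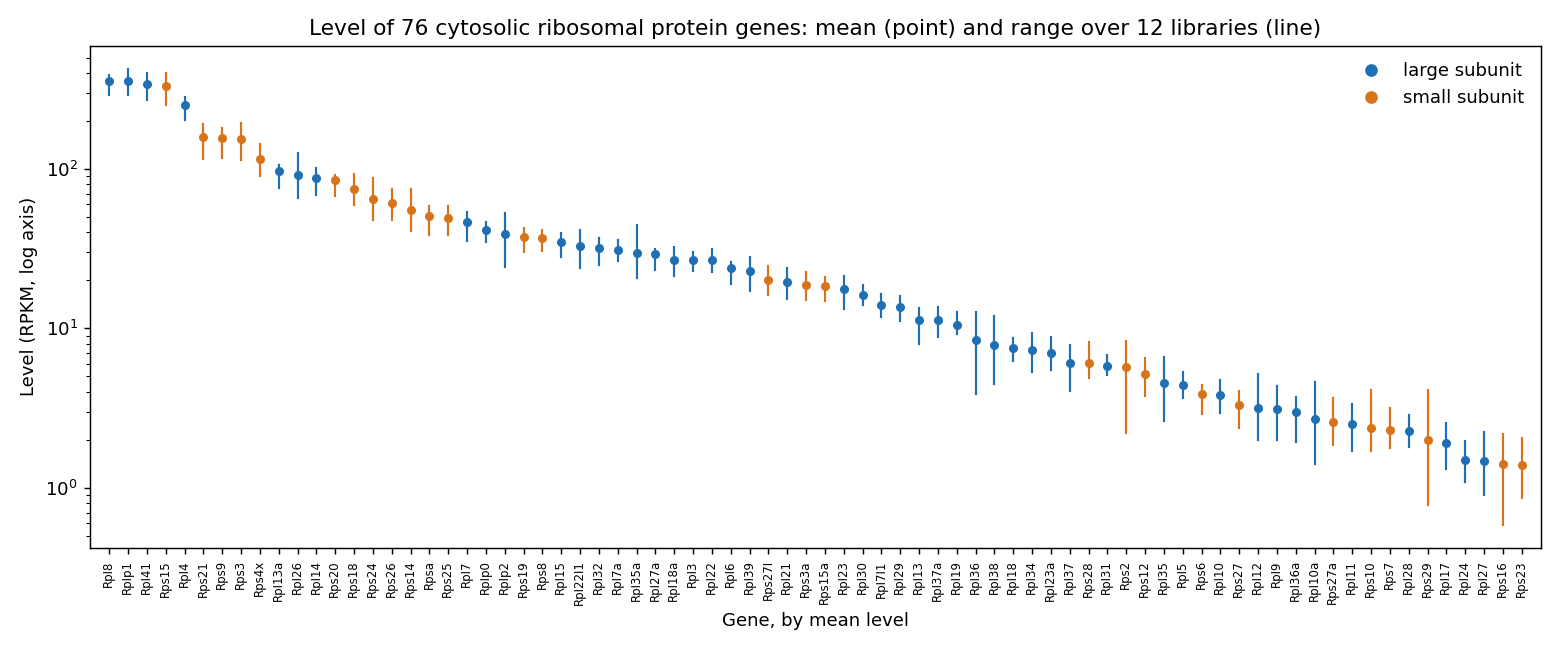
Mean level of each of 76 members (point) and its range over the 12 libraries (line), in RPKM on a log axis, ordered by mean and coloured by subunit. Levels run from 1.39 RPKM for Rps23 to 355 RPKM for Rpl8, and both subunits are found along the whole range.

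Rpl8, a large subunit protein near the peptidyl transferase centre, was measured at 367, 359, 366, 341, 329 and 379 RPKM in miR replicates 1 to 6 and at 390, 375, 290, 340, 356 and 369 RPKM in PBS replicates 7 to 12. PBS replicate 9 was the lowest library and the groups overlapped. Rps6, the small subunit protein whose phosphorylation by S6 kinase is a common readout of mTOR signalling, was measured at 4.28, 3.33, 4.04, 3.78, 4.28 and 4.42 RPKM in the miR libraries and at 4.30, 3.57, 2.92, 3.78, 4.21 and 3.99 RPKM in the PBS libraries. Its mean of 3.91 RPKM was far under the 355 RPKM of Rpl8, while PBS replicate 9 was again the lowest library.

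Level ran beside the share of coding sequence that is a gene's own. The 29 members with a share of 0 had a median of 3.85 RPKM and the 32 with a share above 0 and under 25% a median of 27.0 RPKM. The 10 members from 25% to under 60% had a median of 109 RPKM, and the 8 at 60% or more a median of 93.3 RPKM. Spearman's rank correlation between share and level was 0.66 over the 79 members, given as a description over genes of the same libraries, and it was 0.36 when the runs of the whole transcript were used. Of the 30 members under 10 RPKM, 22 had a share of 0. Rpl41, whose protein is the shortest of the ribosome, went against this order with a share of 0 and 343 RPKM. That share rests on 75 coding bases, and over the whole transcript of Rpl41 it was 46.9%. The rank correlation was 0.06 between level and GC content and 0.04 between level and transcript length. Whole transcript, GC content and length are those of the annotated transcript closest in span to each row. Its span differed from that of the row in many members, by as much as 3204 bases in Rps20. How reads that match several places were treated is not given in the sources used here, and its part in the levels was not tested, so differences of level between members are given as measured and not as differences of expression.

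**Figure D2:**
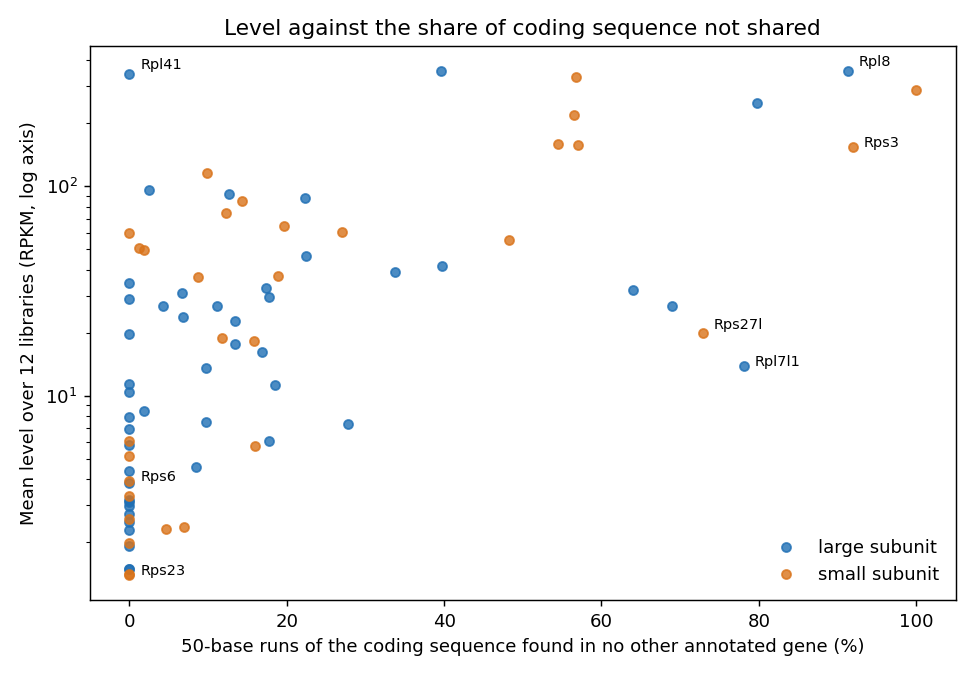
Mean level over the 12 libraries (RPKM, log axis) of each of the 79 members against the percentage of 50-base runs of its coding sequence found in no other annotated gene. Members at 0% have a median of 3.85 RPKM with Rpl41 far above it, and those at 60% or more have a median of 93.3 RPKM.

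Summed over members, both subunits were measured at similar levels. The large subunit summed to 2272 ± 119 RPKM in miR and 2173 ± 196 in PBS, and the small subunit to 2151 ± 163 in miR and 2042 ± 219 in PBS (SD, n = 6 each). The ratio of large to small was 1.06 ± 0.054 in miR and 1.07 ± 0.026 in PBS, and ran from 0.977 in miR replicate 6 to 1.12 in PBS replicate 9. The median member was lower in the large subunit, at 15.1 RPKM, than in the small subunit, at 37.3 RPKM. The stalk proteins differed among themselves, with Rplp1 at 354 RPKM, Rplp0, their anchor on the ribosome, at 41.7 and Rplp2 at 39.1 RPKM. Rpsa, a small subunit protein also known as a laminin receptor, stood at 50.7 RPKM, and Rpl10, a late-joining large subunit protein, at 3.85 RPKM.

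Genes named as like another member were compared with their partner. Rpl22l1 was measured at 32.7 RPKM and Rpl22 at 26.8, a ratio of 1.26 ± 0.12 in miR and 1.18 ± 0.24 in PBS (SD, n = 6 each), so the group ratios differed by less than the spread between libraries. Rps27l stood at 20.1 RPKM against 3.33 for Rps27, with shares of own coding runs of 72.9% and 0. The row of highest mean for Rps27 is a noncoding transcript entry, and its protein-coding row stood at 2.15 RPKM. Rpl7l1 stood at 13.9 RPKM against 46.5 for Rpl7. Rpl3l and Rpl10l, whose expression is known from muscle and testis respectively, were under the level of the members as given above.

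The letters around the annotated start site are shown for several members with CTTTC or CTTTTC nearby. A pyrimidine tract at the very start is the feature through which these messenger RNAs are regulated together. Each window runs from 15 bases before to 15 bases into the annotated transcript, from RefSeq on GRCm38.p6, on the strand of the gene. Capitals mark CTTTC or CTTTTC anywhere in it. The marked letters begin at the first annotated base in Rpl38, further in for Rpl12, Rpl15, Rpl13a and Rps26, and partly before the start in Rps27.

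Rpl12 (chr2:32961697-32961726, plus strand): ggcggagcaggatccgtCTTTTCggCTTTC

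Rpl15 (chr14:18270972-18271001, minus strand): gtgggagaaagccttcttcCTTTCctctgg

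Rpl13a (chr7:45128731-45128760, minus strand): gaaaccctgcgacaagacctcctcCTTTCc

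Rps26 (chr10:128626492-128626521, minus strand): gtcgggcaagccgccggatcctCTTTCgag

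Rps27 (chr3:90213634-90213663, minus strand): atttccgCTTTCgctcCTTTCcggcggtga

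Rpl38 (chr11:114668565-114668594, plus strand): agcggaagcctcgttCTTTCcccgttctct

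A promoter entry was held for 58 of the 79 members. CTTTC or CTTTTC lay in the 30-base window on the sense strand in 17 of these 58 (29.3%). The share was 3.97% of the 9320 genes tested with an entry and 4.89% of all 27025 promoters. Other pyrimidine runs were not counted, among them those at the annotated starts of Rps6 and Rps18. In the 300 bases from 250 before to 50 after the start, the sense strand held it in 70.7% of members, 37.7% of genes tested and 41.1% of all promoters. CCGGAAG, the core that ETS factors recognise, was found on either strand of that window in 39.7% of members, against 17.1% and 9.12%. CCATNTTG, the core of the YY1 motif, was found in 17.2%, against 6.20% and 5.25%, and TATAAA in 10.3%, against 6.70% and 14.2%. A match is a description of the letters. Members with these exact letters in the 30-base window had a median difference between groups of 0.09 on the log2 scale. The other 41 members with an entry had one of 0.08. Some of those 41 start with another pyrimidine run, so the split does not separate messenger RNAs with and without a tract.

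Introns of some members carry small nucleolar RNAs, which guide the modification of ribosomal RNA. Such a row lay within the span of 22 members, on the same strand, among them Rpl13a with 4 and Rpl23a with 3. Their median level was 24.9 RPKM against 18.4 RPKM for the other 57 members, and their median difference between groups was 0.08 against 0.07 on the log2 scale.

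Members varied together between libraries, more so at higher levels. After the mean of each group was subtracted, the median Pearson r between pairs of members was 0.30 over the 12 libraries, against 0.02 in 6636 pairs of genes tested that were paired by a fixed spacing in the alphabet. It was 0.42 among small subunit members, 0.23 among large subunit members and 0.32 between them. Among the 49 members of at least 10 RPKM it was 0.59, and among the 30 below that level 0.24. All of these pairs share the same libraries and depth, and none were matched for level. Small subunit members had the higher median level, at 37.3 against 15.1 RPKM, so the subunit values are not separated from level. Without PBS replicate 9 the value over all members was 0.17.

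Rpl7, with a mean r of 0.45 with the other members, Rpl13a with 0.45 and Rps6 with 0.45 followed the rest most closely. Rps6 did so at 3.91 RPKM and with no coding run of its own. Rpl27 with −0.21, Rpl10a with −0.21 and Rpl28 with −0.12 went against the rest, and all of these have a share of own coding runs of 0 and levels from 1.48 to 2.71 RPKM. Rpl10a was at its highest in PBS replicate 9, at 4.60 RPKM, where most members were at their lowest.

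PBS replicate 9 departed from the other libraries. Its members summed to 3428 RPKM, against 4123 to 4555 RPKM in the other PBS libraries and 4184 to 4865 RPKM in the miR libraries. The median member lay 0.28 under its own mean on the log2 scale, with quartiles of −0.34 and −0.12, while the median of all genes tested lay 0.04 under theirs. PBS replicate 9 was the lowest of the 12 libraries in 44 of 79 members (55.7%), against 20.2% of all genes tested, and the highest in 2 members (2.53%), against 10.7%. Both subunits took part, with 23 of 48 large and 21 of 31 small subunit members at their lowest. In the opposite direction, miR replicate 6 was the highest library in 33 of 79 members (41.8%), against 9.69% of all genes tested, with a median deviation of 0.17 and a sum of 4865 RPKM.

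**Figure D3:**
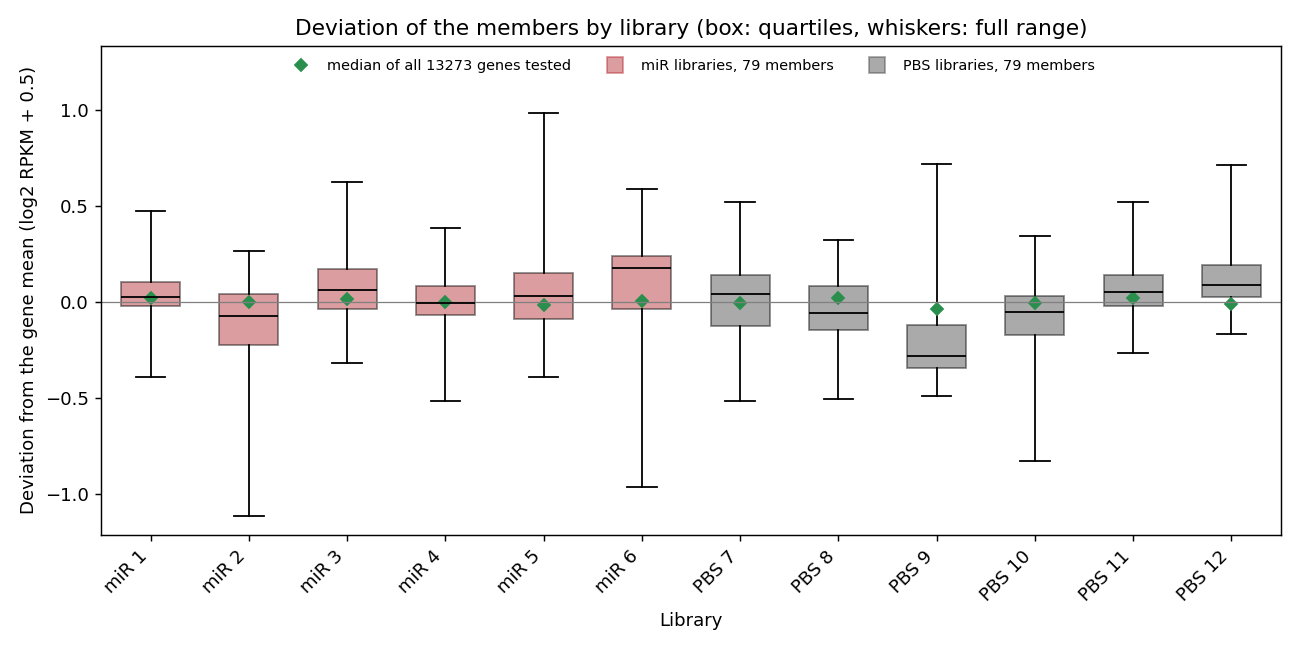
Deviation of the 79 members from their own mean over the 12 libraries, on the log2(RPKM + 0.5) scale, by library (box for quartiles, black line for the median, whiskers for the full range), with the median of all 13273 genes tested as a diamond. PBS replicate 9 has a median of −0.28 and miR replicate 6 one of 0.17, while the medians of all genes stay between −0.04 and 0.02.

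Several other lists of translation genes were low in PBS replicate 9 as well. The 9 genes listed with the elongation factors had a median deviation of −0.20 there, with 6 at their lowest. The 75 mitochondrial ribosomal proteins, which serve a separate ribosome, had one of −0.16, with 41 at their lowest (54.7%). Of all genes tested, 20.2% were at their lowest there. The 46 genes named as initiation factors had −0.11 and 15 other messenger RNAs known to start with a pyrimidine tract −0.17. The 33 ribosome biogenesis genes had −0.04, the value of all genes, with 10 at their lowest. The 15 genes of the mTOR and Larp1 control of these messenger RNAs had 0.003, with 2 at their lowest. The same library held the highest level of Meg3, a nuclear noncoding RNA, at 316 RPKM, and a median deviation of 1.63 over 5 nuclear noncoding RNAs (Meg3, Miat, Snhg11, Malat1 and Neat1). PBS replicate 12 came next for these RNAs, with 245 RPKM of Meg3 and a median deviation of 1.25, and its ribosomal protein members lay 0.09 above their mean. PBS replicates 10 and 8 were also high in these RNAs, with median deviations of 0.97 and 0.84. Their ribosomal protein members had median deviations of −0.05 and −0.06. Markers of several cell types were low in PBS replicate 9 too, with median deviations of −0.66 for 4 oligodendrocyte markers, −0.34 for 5 microglia markers, −0.18 for 5 astrocyte markers, −0.14 for 6 neuron markers and −0.74 for 2 red blood cell markers, against 0.36 for 6 markers of paraventricular neurons and 0.15 for 4 endothelial markers. In PBS replicate 11 the oligodendrocyte markers had −0.77, and the ribosomal protein members lay 0.05 above their mean. Those markers had −0.32 in miR replicate 6, −0.18 in miR replicate 2 and −0.16 in PBS replicate 8. The ribosomal protein members had median deviations of 0.17, −0.07 and −0.06 there. The part of these RNAs and of the cells sampled in the low library was not tested.

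A second pattern cut across the members and was found after their values were seen, so it is described without a test. Rps2 (mm9 chr17:24857008-24858872), a small subunit protein near the messenger RNA entry, was measured at 7.64, 2.21, 8.37, 5.89, 7.15 and 2.88 RPKM in miR replicates 1 to 6 and at 6.53, 4.07, 7.69, 3.22, 7.17 and 6.19 RPKM in PBS replicates 7 to 12. It was low in miR replicates 2 and 6 and PBS replicates 8 and 10, and not in PBS replicate 9. The 6 members with an r of at least 0.7 with Rps2, after group means were subtracted, were Rpl36 with 0.90, Rplp2 with 0.86, Rpl35 with 0.82, Rpl34 with 0.77, Rpl38 with 0.72 and Rplp1 with 0.72. The median deviation of these 7 genes was −0.44 in miR replicate 2, −0.39 in miR replicate 6, −0.36 in PBS replicate 8 and −0.47 in PBS replicate 10, and from −0.01 to 0.35 in the other libraries. In miR replicate 6 the remaining 72 members lay 0.18 above their mean, so that library was low for these genes and high for most others.

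Along the main axis of variation within groups, which took 41.6% of the members' variance, Rps2, Rps29, Rpl38, Rpl35 and Rpl36 had the largest weights. These are members of low level, with means from 1.99 to 8.45 RPKM. In their lowest library Rps29 stood for about 8 reads, Rpl36 for about 34 and Rps2 for about 59. The part of low counts in this axis was not tested. PBS replicate 9 stood out on the second axis, which took 22.0%. Rps2 had an r of at least 0.7 with 6 of 78 members (7.69%), against 2.39% of the other genes tested. The gene most like Rps2 outside the members was Tpt1, whose messenger RNA also starts with a pyrimidine tract, with an r of 0.98 over 12 libraries, followed by Nr2f6 and Zfp771, each with 0.96. The genes with an r of at least 0.7 with Rps2 had a median GC content of 57.5% and a median transcript length of 1853 bases, against 50.6% and 2843 bases over all genes tested. The part of GC content in the pattern was not tested.

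**Figure D4:**
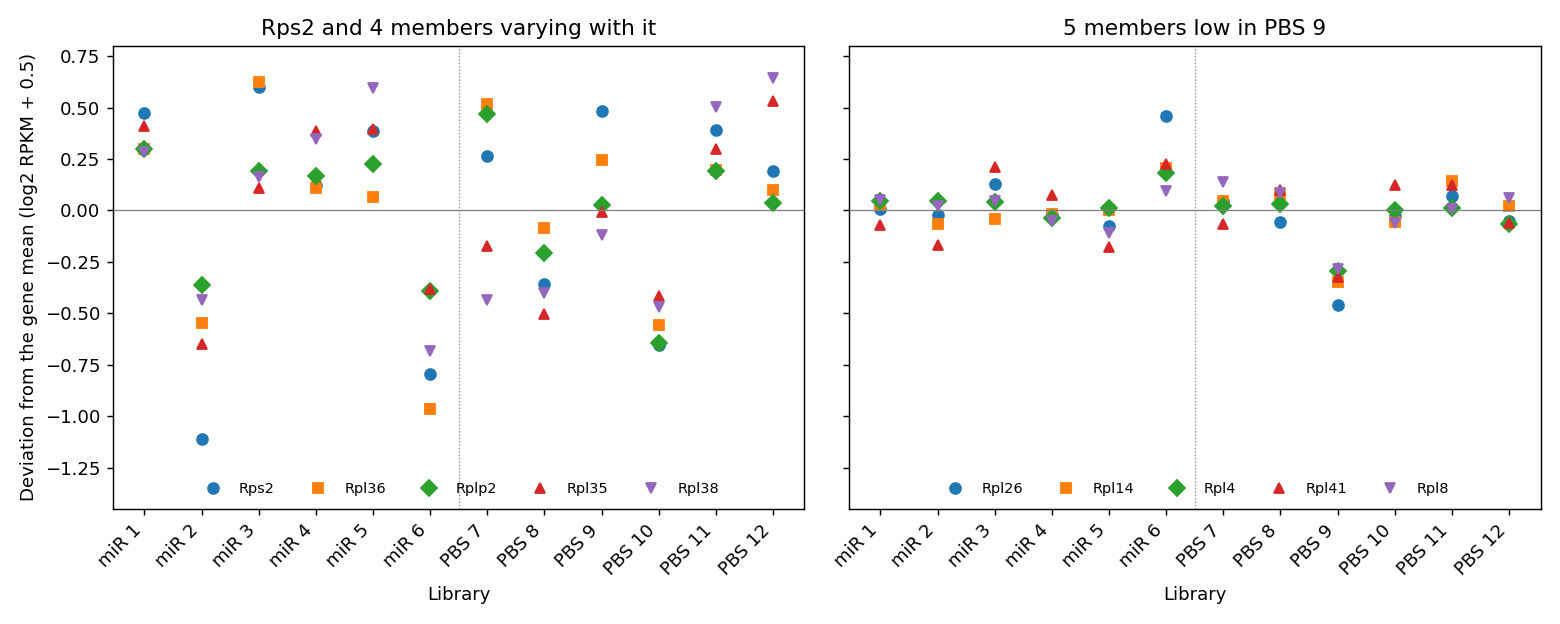
Deviation from the gene mean, on the log2(RPKM + 0.5) scale, in each of the 12 libraries for Rps2 and 4 members varying with it (left) and for 5 members chosen for being low in PBS replicate 9 (right). The left genes are low in miR replicates 2 and 6 and PBS replicates 8 and 10, and the right genes in PBS replicate 9.

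No member passed the test between miR and PBS. With limma on log2(RPKM + 0.5) and Benjamini-Hochberg adjustment over all 13273 genes, 0 of 79 members and 0 genes in all (0%) had an adjusted p below 0.05. At an unadjusted p below 0.05, 2 members were higher in miR, against 9.12% of all genes, and 3 were lower, against 11.1%, shares of 2.53% and 3.80% of the members. The difference was above 0 in 60 of 79 members (75.9%), against 52.9% of all genes, with a median of 0.07 on the log2 scale, or 1.05-fold, against 0.01 over all genes. The median was 0.07 in the large and 0.07 in the small subunit, with 34 of 48 and 26 of 31 members above 0. In 0 members did all 6 libraries of one group lie above all 6 of the other, which held for 0.256% of all genes with miR above and 0.226% with miR below.

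The libraries that departed were also left out. Without PBS replicate 9 the median was 0.03 with 50 members above 0, and without miR replicate 6 it was 0.05. Without both it was 0.01 with 42 of 79 members above 0. These libraries had been singled out on the same member values, as the lowest in PBS and the highest in miR. A smaller shift without them follows from that choice, so these values do not test the shift. With a score of 5 nuclear noncoding RNAs as covariate the median was −0.01 with 36 members above 0.

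**Figure D5:**
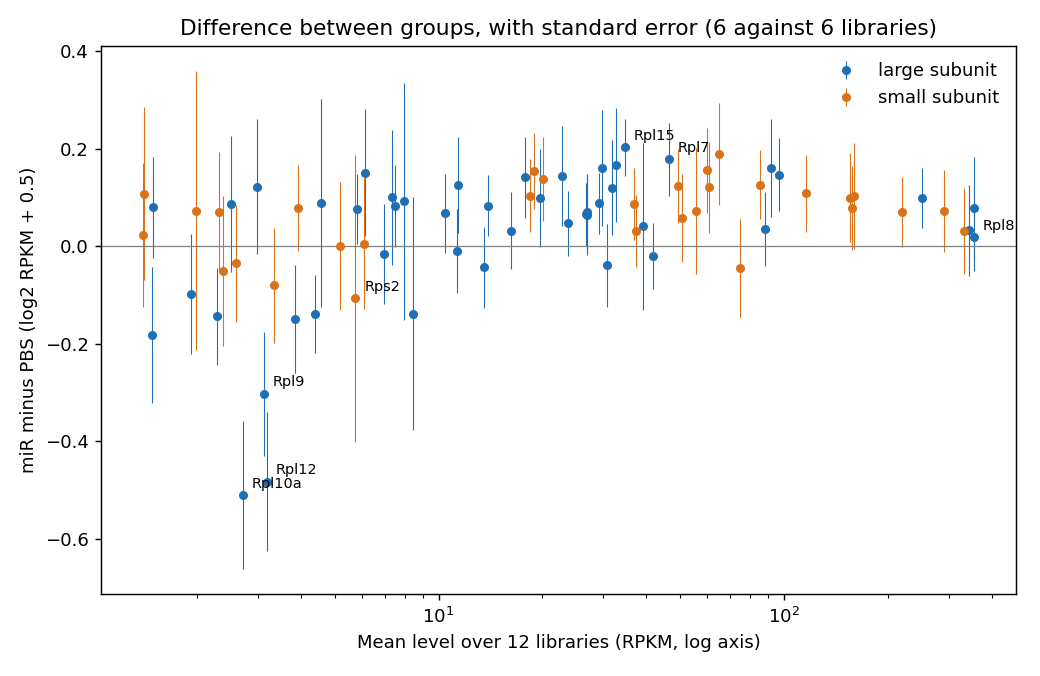
Difference between miR and PBS on the log2(RPKM + 0.5) scale, with its standard error, against the mean level (RPKM, log axis) of each of the 79 members, coloured by subunit. Rpl10a, Rpl12 and Rpl9 lie lowest, between −0.51 and −0.30 at about 3 RPKM, and the members above 100 RPKM lie between 0.02 and 0.11.

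The largest differences were those of 3 large subunit members of low level. Rpl10a (mm9 chr17:28465416-28467978, as the authors' table gives it), the protein of the L1 stalk, was measured at 2.42, 1.40, 2.19, 2.64, 2.41 and 1.79 RPKM in the miR libraries and at 2.25, 3.21, 4.60, 3.45, 2.54 and 3.68 RPKM in the PBS libraries. The miR libraries lay lower with an overlap at PBS replicates 7 and 11. The difference was −0.51 ± 0.15 on the log2 scale (SE), with an adjusted p of 0.17 by limma. Rpl12 (mm9 chr2:32817232-32819565), of the stalk base where elongation factors bind, was measured at 2.59, 2.46, 3.24, 1.998, 2.77 and 2.22 RPKM in the miR libraries and at 2.35, 3.96, 4.43, 3.40, 3.57 and 5.19 RPKM in the PBS libraries, where only PBS replicate 7 overlapped. Its difference was −0.48 ± 0.14, with an adjusted p of 0.17 by limma. Rpl9 was measured at 2.73 ± 0.47 RPKM in miR and 3.50 ± 0.73 in PBS (SD, n = 6 each), a difference of −0.30 with an adjusted p of 0.22 by limma. None of these 3 genes has a coding run of its own, and the value of Rpl10a stood for about 31 reads in its lowest library.

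In the other direction, Rpl15 (mm9 chr14:19100337-19103500), a large subunit protein, was measured at 34.3, 37.2, 34.8, 37.4, 39.6 and 38.8 RPKM in the miR libraries and at 35.4, 31.8, 27.9, 30.7, 34.3 and 32.8 RPKM in the PBS libraries. Most miR libraries were above most PBS libraries, with an overlap between PBS replicates 7 and 11 and miR replicates 1 and 3. Its difference was 0.20 ± 0.06 on the log2 scale (SE), with an adjusted p of 0.17 by limma. Like the lower genes above, Rpl15 has no coding run of its own. Rpl7 stood at 49.3 ± 3.6 RPKM in miR and 43.7 ± 4.7 in PBS, a difference of 0.18 with an adjusted p of 0.22 by limma. Among the next by p were Rps3a, Rpl13a, Rps24, Rps20 and Rpl23, with differences from 0.13 to 0.19 and adjusted p from 0.28 to 0.33 by limma, and on the lower side Rpl5, Rpl28, Rpl10, Rpl27 and Rpl17, from −0.18 to −0.10 and from 0.33 to 0.66. With library weights, Rpl12, Rpl15 and Rpl10a passed, with adjusted p of 0.0088, 0.020 and 0.016 by limma, while 3025 of all genes passed. They also passed without PBS replicate 7, with 0.024, 0.038 and 0.033, while 909 of all genes passed. When a score of the 5 nuclear noncoding RNAs was added to the fit, the difference of Rpl10a moved from −0.51 to −0.17 and that of Rpl12 from −0.48 to −0.17. That of Rpl9 moved from −0.30 to −0.14 and that of Rpl15 from 0.20 to 0.077. Each had an adjusted p of 0.9999 by limma in that fit. The score was lower in miR than in most PBS libraries, so this fit cannot separate the score from the group.

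Members of high level showed small differences. Rpl8 stood at 357 ± 19 RPKM in miR and 353 ± 35 in PBS, Rplp1 at 364 ± 47 and 345 ± 51, Rpl41 at 347 ± 44 and 339 ± 39, Rps15 at 334 ± 34 and 328 ± 39, and Rpl4 at 260 ± 13 and 243 ± 20 (SD, n = 6 each). Each of these differences was less than the spread between libraries of the PBS group. The coefficient of variation over the 12 libraries ran from 7.32% for Rpl4 to 49.1% for Rps29, with a median of 12.6%, and was 7.57% for Rpl8, 10.6% for Rps15, 11.6% for Rpl41 and 13.4% for Rplp1.

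The genes around the ribosome were compared on the same scale, with no gene past an adjusted p of 0.05 in any list. Over all genes tested, 52.9% were above 0, and at an unadjusted p below 0.05 by limma 9.12% were higher and 11.1% lower. Of 9 genes listed with the elongation factors, not all of them such factors themselves, 5 were above 0, with a median of 0.02. Eef1e1 was measured at 26.3 ± 1.3 RPKM in miR and 24.2 ± 1.7 in PBS, and Eef1a1, which delivers the aminoacyl transfer RNA, at 703 ± 28 and 652 ± 49. Of 46 genes named as initiation factors, 27 were above 0, with a median of 0.02. At an unadjusted p below 0.05 by limma, 10 were higher and 2 lower. Eif5a2, in this list by its name although Eif5a was counted with the elongation factors, was measured at 16.0 ± 1.4 and 13.4 ± 1.1. Of 75 mitochondrial ribosomal proteins, 46 were above 0, with a median of 0.03, and Mrpl50 was measured at 17.9 ± 0.65 and 15.8 ± 0.96.

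Of 33 ribosome biogenesis genes 17 were above 0, with a median of 0.01, 2 higher and 5 lower at an unadjusted p below 0.05 by limma. Myc, a transcription factor that drives ribosome production, was measured at 1.47 ± 0.14 RPKM in miR and 1.94 ± 0.12 in PBS, a difference of −0.31 with an adjusted p of 0.17 by limma. Of 15 genes of the mTOR and Larp1 control of these messenger RNAs, 6 were above 0, with a median of −0.01, 1 higher and 3 lower at an unadjusted p below 0.05 by limma. Rps6kb2, a kinase of Rps6, was measured at 3.76 ± 0.44 and 9.05 ± 4.2, and Tsc2, an inhibitor of mTOR, at 14.3 ± 0.85 and 17.3 ± 2.3, with differences of −1.01 and −0.25 and an adjusted p of 0.17 by limma for each. Of 15 other messenger RNAs that start with a pyrimidine tract, 10 were above 0, with a median of 0.06. The 5 nuclear noncoding RNAs were lower in miR in 5 of 5, with a median of −1.17 and all at an unadjusted p below 0.05.

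Depth ran from 22.8 M reads in miR replicate 6 to 45.1 M in miR replicate 1, and from 27.6 to 38.1 M in the PBS libraries. The members took 1.57 ± 0.10% of the summed RPKM of all genes in miR and 1.49 ± 0.12% in PBS. Markers of the labelled tissue were present, with Oxt from 1295 to 3983 RPKM, Avp from 372 to 1564 and Sim1 from 5.08 to 11.3 over the 12 libraries. Between groups, 5 of 5 astrocyte, 4 of 4 oligodendrocyte and 4 of 5 microglial markers had a difference above 0, with medians of 0.15, 0.19 and 0.09, and 4 of 4 endothelial markers one below 0, with a median of −0.19. Neuronal markers were above 0 in 5 of 6, with a median of 0.10, paraventricular markers in 3 of 6, with −0.01, red cell genes in 2 of 2, with 0.23, and choroid plexus and meningeal genes in 0 of 2, with −0.18. Choroid plexus was scarce, with Ttr from 0.209 to 0.676 RPKM. The part of cell composition in the small shift of the members was not tested.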

How the data were processed

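RPKM values of 30399 RefSeq transcript rows were deposited by the authors, with 1 column for each of the 12 animals. Stranded poly-A libraries started from 250 ng of RNA, per the labels' protocols. Genome build mm9 and edgeR are named in the submitters' processing notes, without the part edgeR played. The aligner, the read length, the counting and the treatment of reads that match several places were not given in the sources used here.

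A gene was represented by its row of highest mean (9 members have several rows), which gave 23260 genes, of which 13273 reached a mean of 1 RPKM. Depth was read from the steps between low values. Values were tested as log2(RPKM + 0.5) with limma 3.58.1 in R 4.3.3 (2-sided moderated test, variance following level, Benjamini-Hochberg adjustment over all genes tested). A fold change on this scale understates that of genes of low level. The code was tested on simulated data. Coding sequences, GC content and length came from GENCODE M21, promoters from RefSeq on GRCm38.p6. No position was converted between builds, and strand was not used to separate overlapping genes.

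Members and lists were chosen with earlier results of these data known. Named members are the 8 of smallest p in each direction, the 6 highest and 6 lowest by level, the 3 most and 3 least correlated with the rest, those named as like another, and Rplp0, Rplp1, Rplp2, Rpsa, Rps6 and Rpl10, with 2 genes of smallest p per other list. The results of 3 members by name are not reported here. Rps2 and the genes varying with it were picked once values were known. Tried as alternatives were the removal of each library, library weights, a nuclear RNA covariate, corrections for GC and for length in 20 bins, quantile and median scaling, a constant variance prior, means over rows, a filter at 5 RPKM or none, and pseudocounts of 1 and 0.1 RPKM. The relation of level to own coding runs at each run length, the splits at 10 RPKM and at 25% own coding runs, and the joint removal of 2 libraries were added after the data were seen. Animals of a group are taken as separate samples, and p-values measure the spread between them.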

Additional observations from a re-analysis of the deposited data

Results flagged for a closer look

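Within-group extremes were looked for in the named members and in 3 sums, by the gap of the highest or lowest library to its neighbour as a share of the group's range, with a limit of 0.625 for 6 libraries. Of 68 groups looked at, 7 passed, where chance passes about 1 in 20. Rpl4 was lowest in PBS replicate 9 at 204 RPKM, against 240 to 257 in the other PBS libraries, and highest in miR replicate 6 at 285 RPKM, against 245 to 259 in the other miR libraries. Rpl23 was lowest in PBS replicate 9 at 13.3 RPKM, against 16.8 to 18.8. The ratio of large to small subunit sums was highest there, at 1.12 against 1.04 to 1.07 in the other PBS libraries. Rps15 was highest in miR replicate 6 at 400 RPKM (399.6), against 302 to 333. Rpl13a was lowest in miR replicate 2 at 89.7 RPKM, against 102 to 105, and Rpl10 lowest in PBS replicate 7 at 2.94 RPKM, against 4.12 to 4.50.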

How the results depend on the processing

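No paired analysis was possible because the replicate numbers of the 2 groups are not shared. Of 762 values of the 31 named members under the alternatives, 710 kept their direction and their side of the threshold and 6 passed it, those of Rpl10a, Rpl12 and Rpl15 with library weights and without PBS replicate 7. The genes past the threshold numbered 3025 with library weights, of which 3 were members, and from 0 to 909 with 1 library left out, of which 0 to 3 were members. Members at an unadjusted p below 0.05 numbered 7 higher with library weights, 0 higher and 0 lower with the nuclear RNA covariate, 4 higher with either the GC or the length correction, 0 lower with the filter at 5 RPKM (59 members left), 1 higher without PBS replicate 9 and miR replicate 6 together, and from 1 to 7 higher and 2 to 4 lower with 1 library left out. The cause was not tested.

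The median difference of the members ran from 0.034 to 0.094 with 1 library left out, that of the large subunit from 0.036 to 0.090 and that of the small subunit from 0.023 to 0.101. With the nuclear RNA covariate, which cannot be told apart from group, they were −0.0087, −0.0027 and −0.0090. Without both libraries the small subunit gave −0.0027. Among named members, of which none passed in these cases, the covariate turned the sign of Rpl10 to 0.044, Rpl17 to 0.063, Rpl27 to 0.079, Rpl41 to −0.051, Rpl8 to −0.086, Rplp1 to −0.121, Rplp2 to −0.217, Rps15 to −0.053, Rps16 to −0.046, Rps20 to −0.033, Rps27l to −0.0087, Rps29 to −0.0053, Rps6 to −0.081 and Rpsa to −0.064. Library weights turned Rpl41 to −0.041, Rps15 to −0.038 and Rps23 to −0.024, and the GC correction turned Rpl28 to 0.0061, Rplp0 to 0.0089 and Rps23 to −0.051. Without both libraries Rpl41 was −0.070, Rpl8 −0.054, Rps15 −0.094, Rps6 −0.011 and Rpsa −0.049. With 1 library left out, Rpl41 ran from −0.028 to 0.071, Rpl8 from −0.037 to 0.048, Rplp0 from −0.074 to 0.015, Rplp2 from −0.084 to 0.139, Rps15 from −0.042 to 0.059, Rps16 from −0.036 to 0.223, Rps23 from −0.065 to 0.115, Rps29 from −0.116 to 0.254 and Rpsa from −0.012 to 0.104. The ratio of subunit sums, miR over PBS, was 0.993 by sums and 0.988 by medians. The median r between members ran from 0.168 to 0.351 with 1 library left out and was 0.587 for members of at least 10 RPKM. The rank correlation between level and own coding runs was 0.359 with runs of the whole transcript and from 0.65 to 0.74 with the other run lengths. Low levels limit precision, since Rps29 stood for about 8 reads in its lowest library.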
